A study of Mus musculus with 3 samples.

Results

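Lypd8 and 9 further genes of the Ly6 and Lypd group (Lypd1, Lypd2, Lypd3, Lypd6, Ly6a, Ly6c1, Ly6d, Ly6e and Ly6g) were followed in the distal colon of wild-type (WT) mice aged 8 weeks, at steady state, with a strain label of JAX, a supplier's name. The 10 genes were chosen by name, with earlier results of these data known, and the values of all isoforms of a gene symbol were summed. Of the 10, 9 had values, among 24346 gene symbols in all, and these 9 held 25 of the 34535 isoforms. Ly6g, whose protein marks neutrophils, is not analysed here. Polyadenylated RNA of whole tissue was sequenced as 3 labelled libraries of 1 group, so there was no contrast between conditions. Levels are given in FPKM, fragments scaled to the length of the transcript and to the mapped fragments of the library, a scale on which genes of different length can be compared.

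The Ly6/uPAR family shares a small disulfide-bonded domain whose loops spread like fingers. Most members are tethered to the outer face of the plasma membrane by a glycosylphosphatidylinositol (GPI) anchor, and some are secreted. In the large intestine the family is best known for Lypd8, a heavily glycosylated protein of the epithelial surface that is shed into the lumen, binds flagella and helps to keep motile bacteria out of the inner mucus. Other members mark blood cells, endothelium or stratified epithelium, or tune acetylcholine receptors on neurons.

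The files hold no counts, and their confidence bounds gave back 3.78e+06, 3.79e+06 and 1.24e+06 mapped fragments for replicates 1, 2 and 3. The names of the 3 files carry 1 index sequence, 1 lane and 1 read, and differ in their last number. The labels do not say that the libraries came from separate animals. In a chi-square test with Benjamini-Hochberg adjustment, 6 of 8771 single-isoform genes (0.0684%) differed between the files, and the median chi-square per degree of freedom was 0.679, against 0.693 for sampling noise alone. With a spread near that of sampling alone, the 3 files were counted as 1 sample, so each SD below, over n = 3 files, is an error of measurement and says nothing of the spread between mice. Tissue markers, from lists chosen with earlier results of these data known, fitted the label. Of surface colonocyte markers 8 of 8, and of goblet markers 6 of 6, were at 1 FPKM or more in every file. The same rule was met by 48.5% of all gene symbols. The medians of the colonocyte and goblet lists were 274 and 571 FPKM, beside 1.25 FPKM over all symbols. Muscle (Tagln, 754 ± 18.9 FPKM) and fibroblasts (Dcn, 188 ± 2.14 FPKM) were in the sample as well. In such whole tissue, fewer cells of a type and less RNA per cell cannot be told apart.

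Lypd8 was the most abundant of all 24346 gene symbols. It was at 8540 FPKM in replicate 1, 8528 in replicate 2 and 8634 in replicate 3, a mean of 8567 ± 57.7 FPKM (SD, n = 3), and ranked 1 in each file. The 3 values lay close together, with a coefficient of variation of 0.673%. The gene was covered by about 29417, 29524 and 9809 fragments, which made up 0.778%, 0.780% and 0.789% of the mapped fragments, and it held 2.00% of the summed FPKM of all genes. No gene stood above it, and the next 3 genes down were Eef1a1, a translation elongation factor, at 3748 ± 56.4 FPKM, Zg16, a lectin of goblet cells that binds bacterial cell walls, at 3151 ± 119 FPKM, and Tpt1, a growth-associated protein of most cells, at 2959 ± 40.1 FPKM. The lowest Lypd8 value lay above the highest value of each of these 3 genes.

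Lypd8 lies on chromosome 11, chr11:58379032-58390541 of GRCm38, on the plus strand. The 250 bases before its start in the RefSeq promoter table (GRCm38.p6, chr11:58378782-58379031) are shown because they lead up to the annotated start of the most abundant transcript in these files, with the letters TATAA in capitals.
Lypd8 promoter: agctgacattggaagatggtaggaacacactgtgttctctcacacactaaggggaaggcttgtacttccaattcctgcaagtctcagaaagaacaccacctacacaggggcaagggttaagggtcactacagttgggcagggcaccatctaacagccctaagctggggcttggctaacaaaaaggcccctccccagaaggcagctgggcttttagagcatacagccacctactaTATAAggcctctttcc
The motif TATAA begins 16 bases before the RefSeq start and 27 bases before the start in GENCODE M21 (position 58379043). It is present on either strand in 22.8% of 32851 promoter windows of that length. The window holds 1 match to CCNCNCCC, a box read by KLF and SP factors, which is present in 45.9% of windows, and 2 matches to the E-box CANNTG, present in 66.2%. No letters matching CAAAGTCCA (an HNF4A site, 0.384% of windows), TTTATNG (a CDX core, 9.81%) or AGATAAG (read by GATA factors, 2.74%) were found on either strand. Its GC content was 51.2%, beside a median of 52.4% over all windows. Of the other genes, Lypd1, Lypd3, Lypd6 and Ly6c1 had an entry whose start matched the files. TATAA was found among these 4 windows in that of Ly6c1 alone, 143 bases before the start.

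The rest of the 9 genes ranged from clearly present to listed at 0. Ly6a, Ly6e and Ly6c1 were the other genes with a mean of at least 10 FPKM. Ly6d was low, Lypd1 and Lypd6 rested on few fragments, and Lypd2 and Lypd3 were listed at 0 in every file. By a threshold of 1 FPKM in every file, 5 of 9 genes (55.6%) were present, beside 48.5% of all gene symbols. Ly6d is among the 5, but its deposited lower 95% bounds were 0.856, 0.859 and 0 FPKM in replicates 1, 2 and 3. Its place above 1 FPKM is therefore uncertain. By the count of genes listed at 0, they were 2 of 9 (22.2%), beside 29.9% of all symbols. The share of these genes that was present therefore lay near that of the transcriptome, and the median of the 9 was 3.36 FPKM, beside 1.25 FPKM over all symbols.

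**Figure D1:**
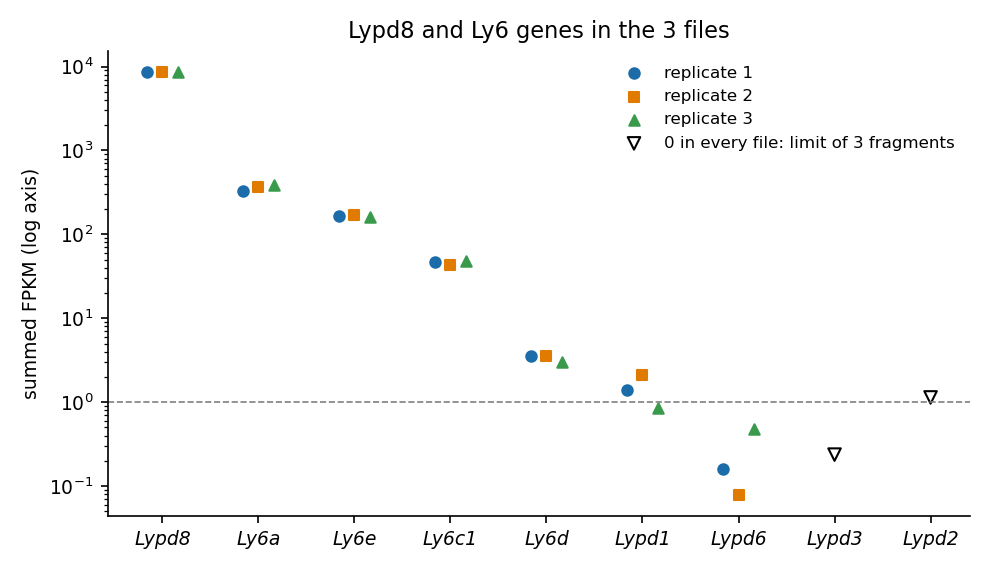
Summed FPKM on a log axis for the 9 genes with values, 1 point per file, with the dashed line at 1 FPKM. Lypd8 sits at 8528 to 8634 FPKM, 4 further genes sit above the line in every file, and the open triangles for Lypd3 and Lypd2 mark the level that 3 fragments over the 3 files would give, 0.237 and 1.14 FPKM.

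Ly6a encodes Sca-1, a surface protein used to mark blood stem cells and found on endothelium, on lymphocytes and on regenerating intestinal epithelium, and it responds to interferon. It was at 332, 366 and 383 FPKM in replicates 1, 2 and 3, a mean of 360 ± 26.0 FPKM (SD, n = 3), and ranked 197 of all symbols. Replicate 1 was the lowest. The coefficient of variation was 7.22%, where the median of the 117 genes within 1.5-fold of its level was 2.79%. In the test between files, run here on all 12629 genes with a mean of at least 1 FPKM, 14 genes (0.111%) were called and Ly6a was not, with an unadjusted p of 0.114 and an adjusted p of 0.99997. The gene lies at chr15:74994877-74998031.

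Ly6e, which serves as a syncytin receptor in the mouse placenta and limits the entry of coronaviruses, and which also responds to interferon, was at 166, 171 and 160 FPKM, a mean of 166 ± 5.73 FPKM (SD, n = 3). It ranked 366 and lies at chr15:74955051-74959905. Its 3 values did not overlap those of Ly6a above it or Ly6c1 below it. Ly6c1, found on endothelium, on some T cells and on monocytes, was at 47.4, 42.8 and 48.3 FPKM, a mean of 46.2 ± 2.99 FPKM (SD, n = 3), and ranked 1439. Its position is chr15:75044018-75048837. The transcripts of Ly6c1 and Ly6c2 are 97.6% identical over 822 bases, so how the reads were split between this pair is uncertain. Ly6a shares 92.1% over 191 bases with Ly6c1. Ly6i, another family gene, shares 92.6% over 336 bases with Ly6a and 91.1% over 326 bases with Ly6c1. How far reads were mixed between these genes was not tested.

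Ly6d, a marker of stratified epithelium and of early B-lineage cells, was at 3.51, 3.52 and 3.05 FPKM, a mean of 3.36 ± 0.269 FPKM (SD, n = 3), from about 15.1 fragments in all. It ranked 9706 and lies at chr15:74762056-74763567. Lypd1, which modulates nicotinic acetylcholine receptors in the brain, was at 1.41, 2.11 and 0.855 FPKM, a mean of 1.46 ± 0.628 FPKM (SD, n = 3), from about 9.83, 14.8 and 1.97 fragments. It was under 1 FPKM in replicate 3 alone, the shallowest file. A GENCODE transcript of Lypd1 of 6464 bases shares a stretch of 100 bases at 97% identity with Pqlc1, so some of these few fragments could belong to either gene, and whether the 2044-base isoform in the files holds that stretch was not tested. Lypd1 lies at chr1:125872042-125912214. Lypd6, a regulator of Wnt signalling and of acetylcholine receptors, was at 0.159, 0.0793 and 0.483 FPKM from about 4.96 fragments in all, so its level is known only to be low. It lies at chr2:50066429-50193569.

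Lypd3, known as C4.4A and expressed in squamous epithelium, was listed at 0 in every file. A total of 3 fragments over the 3 files would have given 0.237 FPKM. Lypd2, a short transcript of 492 bases, was also listed at 0, with a limit of 1.14 FPKM, so a level like that of Lypd6 would not have been detectable at this depth. These limits cover counting error only. Lypd3 lies at chr7:24636570-24641118 and Lypd2 at chr15:74732252-74734313. In the order of the levels, the ranges of the 3 files overlapped in no neighbouring pair from Lypd8 down to Lypd3, although the ranks of Lypd1 and Lypd6 rest on few fragments.

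Lypd8 stood 23.9 ± 1.67 times above Ly6a, the next of its group, with ratios of 25.8, 23.3 and 22.6 in the 3 files. The ratio was highest in replicate 1, where Ly6a was lowest. It stood 51.7 ± 2.13 times above Ly6e and 186 ± 11.6 times above Ly6c1. The ratio to Ly6d was 2565 ± 233 and that to Lypd1 was 6738 ± 3081, where the error grows with the small number of Lypd1 fragments. Against Lypd6 the ratios in the 3 files were 53800, 107530 and 17887, and the ratio of the means was 35662. They rest on about 4.96 Lypd6 fragments in all. Against the limits of 3 fragments, Lypd8 was at least 7522-fold higher than Lypd2 and at least 36129-fold higher than Lypd3. Lypd8 alone made up 93.9%, 93.6% and 93.6% of the summed FPKM of the 9 genes, a mean of 93.7% ± 0.221 (SD, n = 3). It was 14.9 ± 0.566 times the sum of the other 8, which was 577 ± 23.5 FPKM.

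**Figure D2:**
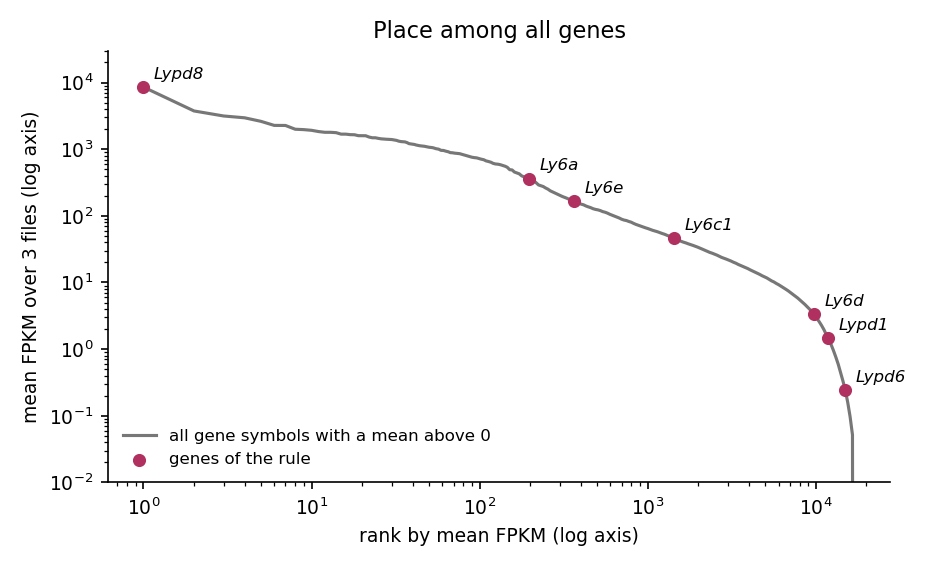
Mean FPKM over the 3 files against rank for all gene symbols with a mean above 0, both on log axes, with the 7 genes of the group that had a mean above 0 marked. Lypd8 lies at rank 1, Ly6a at 197, Ly6e at 366 and Ly6c1 at 1439, while Ly6d, Lypd1 and Lypd6 lie on the falling end of the curve.

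The wider family was read from a list of 50 other Ly6/uPAR genes, of which 44 had values. Of these 44, 10 (22.7%) were at 1 FPKM or more in every file, beside the 48.5% of all symbols. A further 24 (54.5%) were listed at 0, beside 29.9% of all symbols. The median was 0, beside 1.25 FPKM over all symbols. The list includes the Pate genes, most of which were listed at 0. The 4 highest were Ly6c2, Spaca4, Cd59a and Cd177. Ly6c2, a marker of inflammatory monocytes, was at 19.1, 22.1 and 20.6 FPKM, with the uncertainty of its split from Ly6c1. Spaca4, known as a sperm membrane protein, was at 14.98, 15.5 and 17.6 FPKM. Cd59a, which blocks the last step of complement lysis, was at 12.9, 9.69 and 12.2 FPKM, and Cd177, a neutrophil surface protein also made by epithelium, at 10.4, 10.7 and 12.0 FPKM. Cd59a and Cd177 overlapped in their ranges. Lypd8 was 418 ± 31.0 times Ly6c2, the highest of the 4.

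Below these, named after their values were seen, came Ly6g6e at 9.73 ± 2.05 FPKM, Ly6i at 8.25 ± 1.69 FPKM, Ly6m at 7.40 ± 1.27 FPKM, Lynx1 at 3.45 ± 0.926 FPKM, Ly6g6d at 2.41 ± 1.04 FPKM and Gpihbp1 at 1.82 ± 0.654 FPKM. Each of these overlapped its neighbour in the order except Ly6m and Lynx1. Ly6g6d rested on about 9.36 fragments in all and Gpihbp1 on about 8.58, so their place above 1 FPKM is uncertain. The level of Ly6i carries the uncertainty of its likeness to Ly6a and Ly6c1. Gpihbp1 carries lipoprotein lipase across capillary endothelium, and Lynx1 tunes acetylcholine receptors. Plaur, the urokinase receptor, had a mean of 2.07 ± 2.27 FPKM with 4.50, 1.72 and 0 FPKM in the 3 files. It was not called between files, with an unadjusted p of 0.0032 and an adjusted p of 0.738 in the chi-square test over single-isoform genes. Its 3 values came from about 20.5, 7.83 and 0 fragments. Lypd4, Lypd5 and Lypd9 had 0 in every file, where 3 fragments would have given 0.378, 0.459 and 0.841 FPKM. Lypd9 lies on the same chromosome as Lypd8, at chr11:58446143-58452966, and Lypd8 was at least 10189-fold higher. Over all 53 family genes with values, Lypd8 held 92.7% ± 0.230 of the summed FPKM, 12.7 ± 0.441 times the sum of the rest (674 ± 25.6 FPKM).

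**Figure D3:**
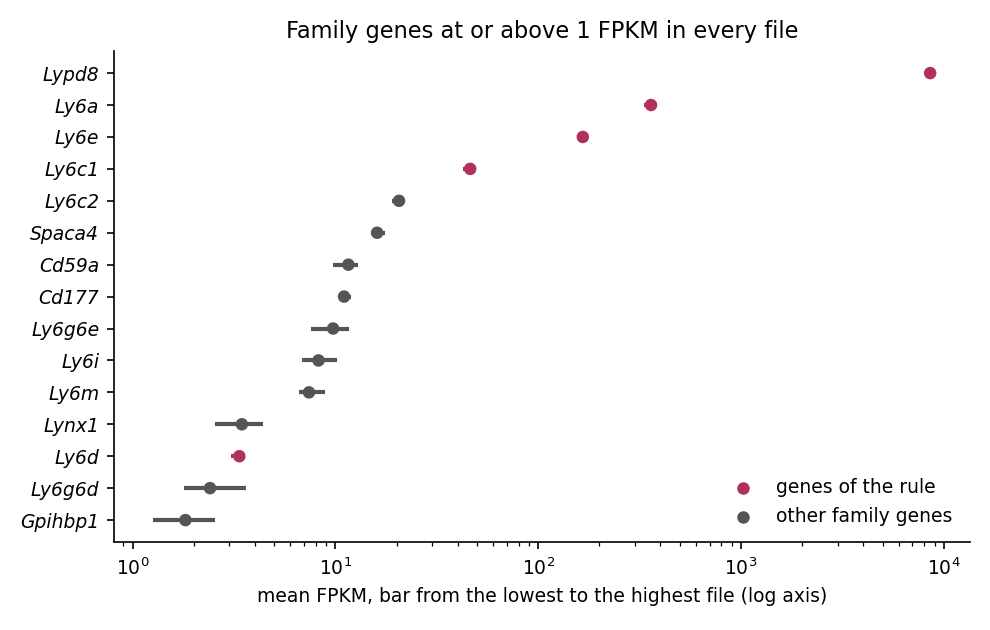
Mean FPKM on a log axis for the 15 family genes at 1 FPKM or more in every file, with a bar from the lowest to the highest file. Lypd8 at 8567 FPKM stands apart from Ly6a at 360 FPKM, and from Cd59a (11.6 FPKM) down many bars overlap.

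The cluster on chromosome 15 held 18 listed family genes with values over 883 kb, of which 9 were at 1 FPKM or more in every file and 5 at 0, shares near the 48.5% and 29.9% of all symbols. Ly6e, Ly6a and Ly6c1 lie close together there, starting 223, 263 and 312 kb from the start of Lypd2, with Ly6i (8.25 FPKM) between Ly6e and Ly6a. Ly6a and Ly6e together held 85.0% ± 0.813 of the cluster's summed 618 ± 25.3 FPKM. Lypd8, which lies outside it, was 13.9 ± 0.523 times the whole cluster.

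**Figure D4:**
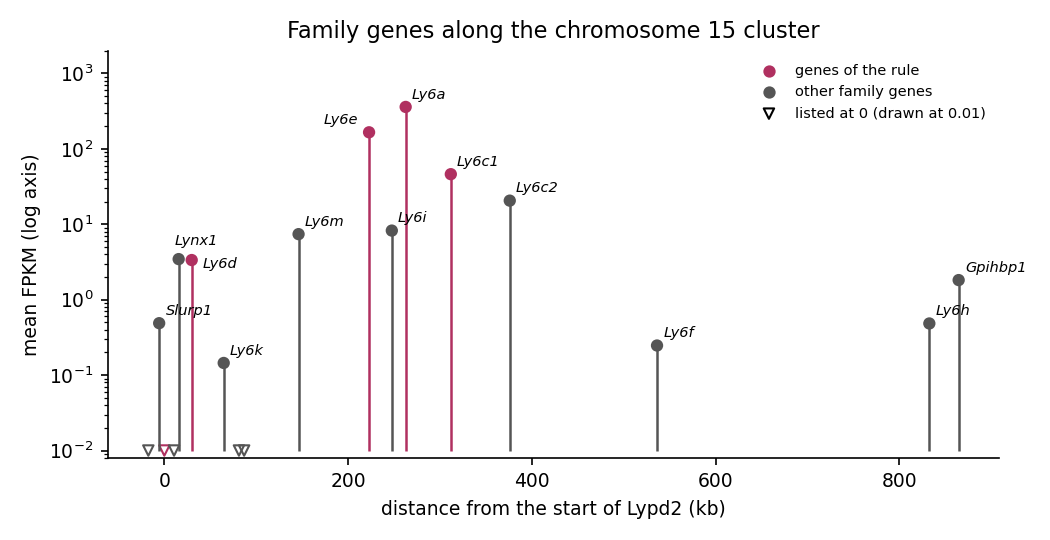
Mean FPKM on a log axis for the 18 family genes of the chromosome 15 cluster against the distance of their starts from that of Lypd2 in kb, with genes listed at 0 drawn as open triangles at 0.01. The 3 highest genes, Ly6a, Ly6e and Ly6c1, stand between 223 and 312 kb.

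The isoforms of Lypd8 differed in abundance by more than an order of magnitude. The 1108-base isoform was at 8266, 8265 and 8323 FPKM and the 1043-base isoform at 274, 263 and 311 FPKM. The deposited 95% bounds of the longer one in replicate 1 ran from 7912 to 8621 FPKM, those of the shorter from 246 to 302 FPKM. The longer isoform made up 96.8%, 96.9% and 96.4% of the gene, a mean of 96.7% ± 0.268 (SD, n = 3), and was 29.5 ± 2.39 times the shorter. They differ by exon 2 of 7, a cassette of 65 bases at chr11:58379645-58379709 that lies in the 5′ UTR, before the start codon at position 58382333. Both models carry the same coding part of 765 bases in GENCODE M21. The junctions that separate them are shown with the last bases of the left exon in lower case and the first bases of the right exon in capitals.
Lypd8 exon 1 to exon 2: ggctggacccagaagGATTGCCACAAGGCT
Lypd8 exon 2 to exon 3: tctctgggtctggagGTTTGAGGCTCTGTG
Lypd8 exon 1 to exon 3: ggctggacccagaagGTTTGAGGCTCTGTG
The first pair belongs to the 1108-base isoform, and the last, which skips exon 2, to the 1043-base isoform. The files give levels of isoforms, not reads over junctions.

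Ly6a was spread over more isoforms. The 956-base isoform was at 229, 282 and 288 FPKM, and the 971-base isoform at 92.6, 73.4 and 84.2 FPKM. Replicate 1 was lowest for the shorter of this pair and highest for the longer. The 956-base isoform thus took 69.1%, 77.0% and 75.4% of the gene, a mean of 73.8% ± 4.17 (SD, n = 3), and was 3.25 ± 0.698 times the 971-base isoform, which took 23.3% ± 4.09. A 987-base isoform was at 10.1 ± 0.405 FPKM (2.82%), and the other 3 of the 6 were at about 0. The isoforms of 956 and 971 bases differ by 15 bases, which is the spacing of a pair of splice acceptors before the start codon in GENCODE M21, at positions 74997617 and 74997632 of chromosome 15. GENCODE does not tie each isoform to its acceptor, so the match rests on length.
Ly6a junction to the acceptor at 74997617: cttgtctgagaggaaCCCTTCTCTGAGGAT
Ly6a junction to the acceptor at 74997632: cttgtctgagaggaaGTTTTATCTGTGCAG

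Ly6e was the most evenly divided of the 3 genes. The 2070-base isoform was at 96.7, 105 and 97.4 FPKM, and the 2067-base isoform at 69.7, 60.3 and 62.5 FPKM. The longer made up 58.1%, 61.1% and 60.9% of the gene, a mean of 60.1% ± 1.69 (SD, n = 3), and the shorter 38.7% ± 3.37, a ratio of 1.56 ± 0.175. The ranges of the pair did not overlap in FPKM. A 1864-base isoform was at 5.07 FPKM in replicate 2 and at 0.00538 and 0.00517 FPKM in replicates 1 and 3. The isoforms differ by 3 bases, which is the spacing of tandem acceptors at positions 74957777 and 74957780, ahead of the start codon at 74957808. GENCODE ties both isoforms to 1 transcript with the acceptor at 74957777, so here too the match rests on length.
Ly6e junction to the acceptor at 74957777: cctcttcacccggagTAGGCTTCTTTGGCT
Ly6e junction to the acceptor at 74957780: cctcttcacccggagGCTTCTTTGGCTTGC
Isoforms that differ by so few bases are told apart by few fragments, so these shares carry the estimate of the authors' program. The 849-base isoform of Ly6c1 held 81.2% ± 6.61 of that gene.

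**Figure D5:**
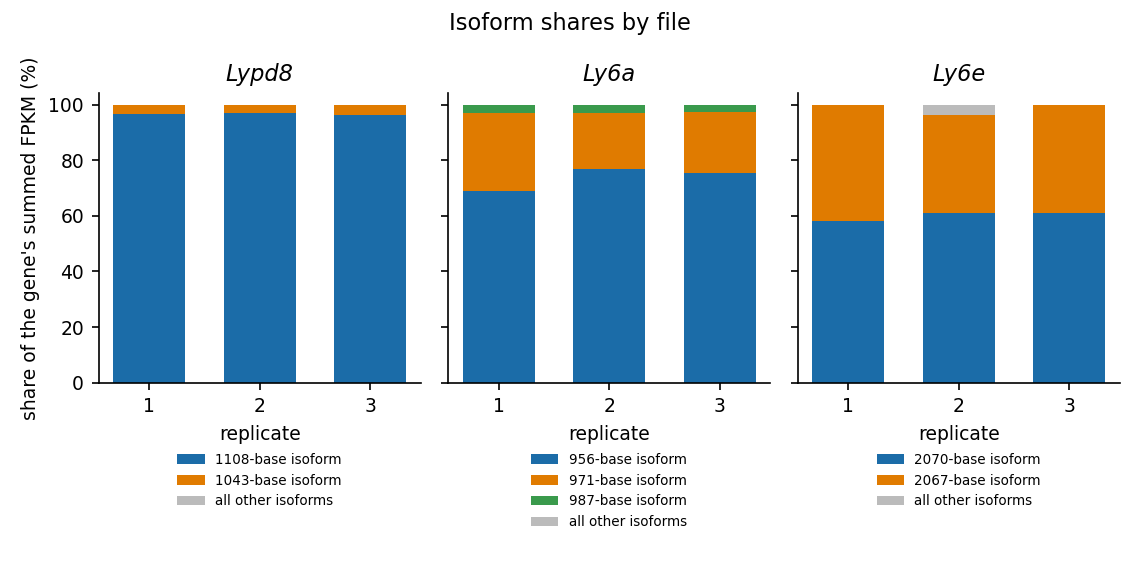
Share of each gene's summed FPKM, in percent, held by each isoform of at least 2% in the 3 files, with the rest in grey. The 1108-base isoform fills 96.4% to 96.9% of Lypd8, while the main isoform holds 69.1% to 77.0% of Ly6a and 58.1% to 61.1% of Ly6e.

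GPI-anchored proteins need an enzymatic route that builds the anchor in the endoplasmic reticulum, joins it to the protein and remodels it. Of 32 genes of this route and of anchor release, 30 (93.8%) were at 1 FPKM or more in every file, beside the 48.5% of all symbols, with a median of 8.85 FPKM beside 1.25 FPKM. Of the 18 genes of anchor synthesis, 17 were present, led by Pigp (45.1 ± 3.82 FPKM), Dpm2 (31.1 ± 3.14 FPKM), Pigh (26.3 ± 1.35 FPKM) and Pigf (25.2 ± 6.004 FPKM). Pigp, Pigh and Dpm2 belong to the complex of the first step, and Pigf acts in a late one. All 5 subunits of the transamidase that attaches the anchor were present, led by Pigt (46.1 ± 3.49 FPKM), Pigs (26.1 ± 1.43 FPKM), Pigu (17.0 ± 3.06 FPKM) and Gpaa1 (12.4 ± 0.904 FPKM).

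All 6 genes listed under remodelling were present as well, led by Pgap2 (33.0 ± 2.29 FPKM), Pgap6 (25.7 ± 0.537 FPKM), Pgap4 (15.1 ± 0.335 FPKM) and Mppe1 (8.70 ± 1.95 FPKM). Whether each of them, Pgap6 among them, remodels anchors and does not release them was not tested. Of the list of release genes, Gde1 was at 65.6 ± 7.47 FPKM and Gpld1, a phospholipase that cuts GPI anchors, at 6.82 ± 0.493 FPKM, while Notum was listed at 0. Gde1 is a glycerophosphodiesterase and Notum is best known for removing a lipid from Wnt proteins, so Gpld1 is the member of that list closest to its name.

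Several of the 9 genes are markers of other cells, and the whole marker lists are given beside them, to be read against the 48.5% of all symbols at 1 FPKM or more in every file and the 29.9% listed at 0. Of 12 neutrophil markers, none was at 1 FPKM or more in every file, 8 were listed at 0 (among them S100a8, S100a9, Mpo and Elane), the highest was Cxcr2 at 0.634 ± 0.205 FPKM, and the summed level was 1.10 to 1.62 FPKM over the files. For Ly6d and Lypd3, genes of squamous epithelium, 2 of 12 squamous markers were at 1 FPKM or more in every file, led by Sbsn (2.69 ± 2.56 FPKM) and Krt10 (1.70 ± 0.410 FPKM). The summed squamous level was 5.50 to 8.27 FPKM, and 6 of the 12, Krt13, Krt4, Krt1, Krt6a, Dsg3 and Trp63, were listed at 0. The zero markers here were named after their values were seen. The part of squamous cells in the level of Ly6d was not tested. No list was made for early B-lineage cells, which Ly6d also marks, so their part in that level was not tested either.

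For Ly6a and Ly6c1, 8 of 8 markers of blood endothelium were present at a summed 45.2 to 46.4 FPKM, led by Plvap (16.1 ± 1.57 FPKM) and Pecam1 (10.7 ± 0.193 FPKM). Ly6a was at 360 FPKM and Ly6c1 at 46.2 FPKM. A gene's level beside a sum of markers does not give the part of a cell type in that level. Of 8 monocyte and macrophage markers, 7 were present, led by Plac8 (973 ± 29.4 FPKM) and Lyz2 (125 ± 4.26 FPKM), with a summed level of 1114 to 1174 FPKM. Plac8 is also on the colonocyte list and makes up most of that sum. T cell markers were at 1 FPKM or more in every file in 3 of 6, a share near the 48.5% of all symbols, led by Cd3e (2.65 ± 0.543 FPKM) and Cd3g (2.58 ± 1.27 FPKM), with a summed level of 7.27 to 10.1 FPKM. For Lypd8, the surface colonocyte list summed to 3359 to 3401 FPKM, led by Plac8 and Car4 (817 ± 13.5 FPKM), and the goblet list to 6719 to 6988 FPKM, led by Zg16 and Tff3 (2276 ± 62.1 FPKM). Lypd8 alone was above either sum in every file. The part of each cell type in these levels was not tested.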

How the data were processed

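RNA of mouse distal colon was measured in 3 labelled libraries of 1 group. Per the file headers, each deposited file is an isoform table made by the authors with Cufflinks, which gives FPKM, its lower and upper 95% bounds and a coverage signal that was used only to describe the files. The submitters' processing notes name Cufflinks 2.2.1, TopHat2 2.1.1 and Bowtie2 2.3.4.3 without settings. How reads with several matches were treated is not stated there. Those notes name GRCm39, but 22552 of 23027 symbols (97.9%) start or end within 1000 bases of RefSeq genes on GRCm38.p6, so positions are printed as GRCm38.

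FPKM were summed per gene symbol, with no rescaling and no pseudocount. Depth was recovered from the bounds: the distance from the FPKM to its upper bound was taken for 2 standard errors, and the square of 1 standard error over the FPKM for what 1 fragment is worth. In single-isoform genes over 800 bases with up to 30 fragments, 64.1% of 4441, 64.2% of 4480 and 64.3% of 6085 values lay within 0.01 of a whole number, so fragments were not rounded to counts. The listed isoforms held 73.4% to 73.7% of the 8.81e+06 fragments. Limits for genes listed at 0 are 3 fragments over all files. The test between files is a chi-square test with these sampling variances, after scaling to a common median ratio, with Benjamini-Hochberg adjustment at 0.05. Tools were BLAST+ 2.17.0 and Python 3.11.15 with SciPy 1.17.1, numpy 2.4.6, matplotlib 3.10.9 and pandas 2.3.3. Transcripts sharing at least 97% identity over 100 bases were searched for in GENCODE M21 for the 9 genes with values and the other family genes, and 6 of these 53 had one. Exons come from GENCODE M21 and promoters from RefSeq.

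The 10 genes and all lists were chosen with earlier results of these data known. The genes named are the 10, the 4 highest and up to 3 at 0 of the family and GPI lists, the 2 highest of each marker list, and the 3 genes next above and below Lypd8. Alternatives were each file left out, the highest isoform, TPM, other thresholds, pseudocounts and filters.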

Additional observations from a re-analysis of the deposited data

How the results depend on the processing

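Of 70 alternative values of 12 results, 61 stayed within the error or within 1.5 times of the reported count, and 9 moved. When only each gene's highest isoform was used, Lypd8 was at 8285 FPKM, 31.4 times the next gene, at 95.3% of the group and 94.3% of the wider family, since Ly6a loses more to its minor isoforms. With each file rescaled to TPM, Lypd8 was at 20048 TPM. It ranked 1 under every setting run. Leaving out each file in turn gave a ratio to Ly6a of 22.9 to 24.5. The genes present in every file numbered 4 (threshold of 5 FPKM) to 6 (0.5 FPKM, TPM, the mean, or without replicate 3, where Lypd1 passes), the other family genes 7 to 11 and the GPI genes 23 to 30. The genes called between files numbered 2 to 6 when each file was left out (2 without replicate 1, 3 without replicate 2), 14 over all genes and 35 with variances of fragment counting, an alternative chosen after seeing the data. Under that last one Ly6a had an unadjusted p of 0.0316 and an adjusted p of 0.824. No paired analysis was possible because the labels give 1 group. Depth limits Ly6d, Lypd1, Lypd6, Ly6g6d, Gpihbp1 and the genes listed at 0. With files that count as 1 sample, no spread between mice is known.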
